A study of Mus musculus with 16 samples.

Results

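Young microglia that had not taken up fluorescent amyloid-beta 1-42 (Aβ42) were compared with young microglia of the same pools that had. Cells of C57/Bl6 wild-type mice were cultured with 2.5 μM fibrilized Aβ42 carrying a green dye for 2 h, and live CD45-intermediate, CD11b+ cells were then sorted into an Aβ42- and an Aβ42+ group. Cells of 3 male mice aged 2 months were pooled for each replicate by a legend of the study, whose methods speak of 4 mice instead of 4 pools. Both sorts of a pool carry the same number, so the comparison holds 8 of the 16 libraries of the series, as 4 pairs, with 4 libraries in each sort. The matching sorts of 4 old pools, from mice of 18 months, are used here for the dependence on age alone. No library of cells cultured without Aβ42 was analysed here, so every library comes from a culture that held the peptide. The sample labels name the treatment for the Aβ42+ libraries only, and the protocol gives it for all.

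The description is limited to the 8104 of 35869 listed genes whose mean over the 8 libraries was 20 TPM or more. TPM is the number of reads of a gene per unit of its length, scaled to the same total in every library, so levels of different genes can be set side by side. The threshold used the level over both sorts, so a gene high in 1 sort alone can pass through that sort, as did 651 members whose mean in the other sort was below 20 TPM. These include 121 of the members called higher in Aβ42-, such as Prss34, Mcpt8, Ear6, Gzma, Ctsg, Ccnb1, Cdk1 and Stfa3. They also include 24 of those called lower, such as Flrt3, Msr1, Il10 and Pf4. The counts and medians over members, and over the members of a list, are therefore descriptions. The genes nearest to the threshold were Decr1 inside, with a mean of 20.0016 TPM, and Mlx outside, with 19.9993 TPM. All members but Snord64 passed the filter of at least 1 TPM in at least 4 libraries, which left 8103 members among 33281 genes tested.

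Microglia are the resident macrophages of the brain. They bind Aβ fibrils through scavenger, lectin, complement and pattern recognition receptors, draw them in by reshaping actin at the phagocytic cup, and degrade them in lysosomes. Blood granulocytes also carry CD11b, and their granules hold serine proteases, peroxidases and antimicrobial peptides that are made at successive stages of maturation in the bone marrow.

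Values are given for replicates 1 to 4 in that order. A difference is the level in Aβ42- minus that in Aβ42+ on the log2(TPM + 1) scale, which understates changes of low genes, with the standard error (SE) of limma's model with the pool as a block. Calls were made where limma's p, adjusted by the Benjamini-Hochberg method over every gene tested, was 0.05 or less. Whether counting used the strand is not given in the sources used here, and in these bulk libraries fewer cells of a type cannot be told apart from less RNA per cell.

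The libraries were checked first. The 15 homeostatic microglia genes, among them Tmem119, P2ry12 and Cx3cr1, were all present, with a summed level of 3403 to 3473 TPM in Aβ42- and 3525 to 4168 TPM in Aβ42+. Itgam, which encodes the gating antigen CD11b, was at 323 ± 14.1 TPM in Aβ42- and 234 ± 22.99 TPM in Aβ42+ (SD, n = 4), a called difference of 0.47 ± 0.06 (SE). Ptprc, which encodes CD45, was at 52.05 ± 7.52 and 48.8 ± 4.49 TPM and was not called. A common level of olfactory and vomeronasal receptor genes, which have no known role in microglia, ran from 0.553 TPM in replicate 1 to 5.46 TPM in replicate 3 of Aβ42-, and from 0.78 to 6.88 TPM in the same replicates of Aβ42+. The Aβ42- library of replicate 4 stood apart for Ttr, the transthyretin of the choroid plexus, with 33.7, 45.3, 41.7 and 738 TPM in Aβ42- against 289, 157, 91.7 and 235 TPM in Aβ42+, and for the hemoglobin genes described below.

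Libraries of the young Aβ42- sort held more RNA of granulocyte, basophil, eosinophil and natural killer cell genes and of part of the cell cycle genes, while those of the Aβ42+ sort held more RNA of the scavenger receptor gene Msr1, of Apoe, Gpnmb and Fabp4 among the lipid-handling genes, and of 7 of 19 interferon-stimulated genes. Of the members tested, 380 (4.69%) were called higher and 120 (1.48%) lower in Aβ42-. Over all genes tested, 1.84% were called, 1.41% higher and 0.43% lower in Aβ42-. All 500 called members changed the same way in all 4 pairs. The levels of the sorts did not overlap for 715 members in the higher and 338 in the lower direction, or 8.82% and 4.17% of members, where 4.05% and 1.6% of all genes tested did so.

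Most members differed little. The difference was within 0.5 in either direction for 83.8% of members, and its median was -0.08 over members and 0.04 over all genes tested. The SD of a member's difference over the 4 pools had a median of 0.24. The called members higher in Aβ42- had a median difference of 1.29, and 96 of them exceeded 2. Those lower in Aβ42- had a median of -0.68, and 16 exceeded 2 in size. Calls were made for 4.28% of members between 20 and 50 TPM and for 9.14% of those of at least 200 TPM, and the SD over pools fell from a median of 0.307 to 0.138 between these levels. Without the pool as a block, 367 members were called higher and 66 lower, and the numbers of calls rested on each pool. Without replicate 1, 2, 3 or 4 in turn, 105, 161, 217 and 91 members were called higher and 15, 25, 35 and 12 lower. Left out 1 at a time, no pool ended the call of 73 of the called members, and of 30 of the 123 called genes described below with values. Msr1 is among these 30, while Apoe, Gpnmb, Fabp4 and the called cell cycle genes are not.

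**Figure D1:**
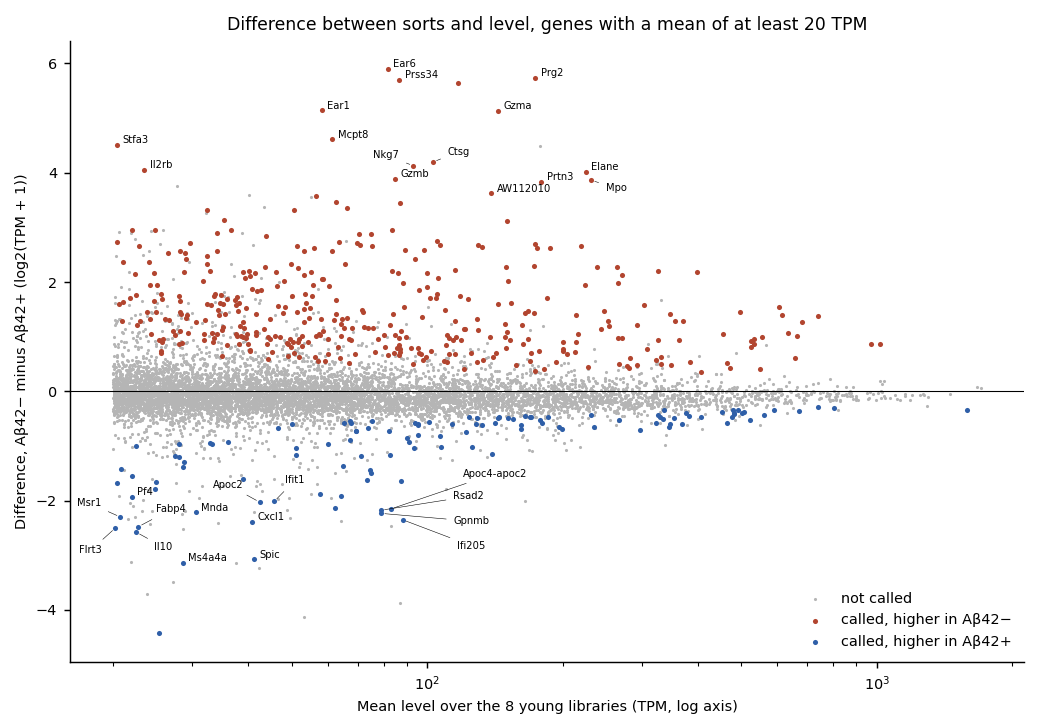
Each point is a gene whose mean reached 20 TPM, placed by its mean level over the 8 young libraries (TPM, log axis) and its difference between sorts (Aβ42- minus Aβ42+, log2(TPM + 1)). Red and blue points are the 380 genes called higher and the 120 called lower in Aβ42-, grey points were not called, and names mark the 15 largest differences in each direction among called genes other than short RNAs and predicted genes.

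The largest differences were in genes of basophils and eosinophils, the granulocytes of allergic and antiparasite responses. Prss34, a basophil protease, was at 258, 135, 151 and 139.7 TPM in Aβ42- and 2.29, 5.202, 1.42 and 1.07 TPM in Aβ42+, a difference of 5.70 ± 0.32 (adjusted p = 0.00354). Mcpt8, another basophil protease, was at 188, 81.7, 118 and 88.7 TPM in Aβ42- and 2.704, 3.41, 5.86 and 3.16 TPM in Aβ42+, a difference of 4.61 ± 0.28 (adjusted p = 0.00402). Both genes were at or below 5.86 TPM in every Aβ42+ library and at or above 81.7 TPM in every Aβ42- library, highest in replicate 1. Prg2, the major basic protein of eosinophil granules, was at 439.6, 435, 116 and 369.9 TPM in Aβ42- and 0, 13.4, 12.8 and 4.15 TPM in Aβ42+ (difference 5.74 ± 0.87, adjusted p = 0.0438). Ear6, an eosinophil-associated ribonuclease, was at 203, 225, 54.7 and 163 TPM in Aβ42- and 1.39, 0, 4.302 and 1.62 TPM in Aβ42+ (difference 5.90 ± 0.68, adjusted p = 0.0208). Ear1 of the same family was at 144, 169, 46.2 and 95.7 TPM in Aβ42- and 4.16, 3.501, 2.15 and 0 TPM in Aβ42+ (difference 5.14 ± 0.42, adjusted p = 0.00785). These genes were lowest in replicate 3 of the Aβ42- libraries and did not overlap between the sorts, although the Ear genes are close paralogs whose reads may be split among them. Ear2 was not called, with 126, 109, 37.7 and 59.1 TPM in Aβ42- and 47, 69.7, 87.8 and 63.01 TPM in Aβ42+, and the eosinophil peroxidase gene Epx, at a mean of 10.1 TPM no member, was not called either (difference 1.35 ± 0.52, adjusted p = 0.35). Genes shared by basophils and mast cells were higher in every Aβ42- library than in any Aβ42+ library without being called, namely the protease gene Cpa3 (difference 2.81 ± 0.50, adjusted p = 0.0683), the IgE receptor chain Fcer1a (2.19 ± 0.42, adjusted p = 0.0821) and the transcription factor gene Gata2 (1.43 ± 0.34, adjusted p = 0.14). In a list of 14 basophil and eosinophil genes written after these values were seen, 7 genes were members and 5 were called higher. Its summed level was 627 to 1536 TPM in Aβ42- and 84.95 to 173 TPM in Aβ42+. The common level of olfactory and vomeronasal receptor genes in Aβ42+ was 0.78, 3.39, 6.88 and 2.78 TPM, so the sizes of these differences are uncertain. With that level subtracted, Prg2 was not called by limma (adjusted p = 0.11), and Prss34, Mcpt8, Ear6 and Ear1 were still called.

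Genes of natural killer cells and cytotoxic lymphocytes were higher in Aβ42- as well. Gzma, a granzyme of cytotoxic granules, was at 295, 271, 214 and 322 TPM in Aβ42- and 9.03, 35.6, 1.75 and 2.64 TPM in Aβ42+, a difference of 5.13 ± 0.60 (adjusted p = 0.022). Gzmb, which encodes the granzyme that starts caspase activation in target cells, was at 217, 160.3, 103 and 159 TPM in Aβ42- and 9.07, 12.3, 10.8 and 6.53 TPM in Aβ42+ (difference 3.89 ± 0.25, adjusted p = 0.00405). For Gzma the Aβ42+ library of replicate 2 lay above the other Aβ42+ libraries but far below every Aβ42- library. With the common receptor level subtracted, Gzma was not called by limma (adjusted p = 0.155), and Gzmb was still called. Nkg7, a protein of cytotoxic granules, was at 220.5, 150.03, 144 and 189.8 TPM in Aβ42- and 3.66, 15.4, 9.44 and 11.4 TPM in Aβ42+ (difference 4.13 ± 0.38). Il2rb, a receptor chain for the growth factors interleukin 2 and 15, was at 59.3, 44.1, 30.8 and 46.03 TPM in Aβ42- and 1.03, 3.297, 1.93 and 1.102 TPM in Aβ42+ (difference 4.05 ± 0.31). AW112010, a transcript of activated immune cells, was at 269.96, 270.3, 201 and 287 TPM in Aβ42- and 25.5, 24.1, 13.8 and 17.9 TPM in Aβ42+ (difference 3.62 ± 0.12, adjusted p = 0.00261). All of these were higher in each of the 4 pairs without overlap. In the list of T and NK cell markers, Gzma and Cd2 (difference 3.32 ± 0.33) were called higher among 3 members, and Prf1, which encodes perforin, was not called (difference 2.57 ± 0.49, adjusted p = 0.0794). The summed level of that list was 366 to 558 TPM in Aβ42- and 43.8 to 83.2 TPM in Aβ42+. Of 14 NK cell genes chosen after the values were seen, 7 of 8 members were called higher, among them Xcl1 (difference 3.58 ± 0.49), Cd7 (3.33 ± 0.17) and Tbx21 (1.3 ± 0.20). Of the 11 B lineage markers, neither of the 2 members was called. Cd79a, of the B cell receptor, differed by 1.20 ± 0.22 (adjusted p = 0.0743) and the adaptor gene Blnk by -0.20 ± 0.05 (adjusted p = 0.149), and the sum of the list, 571 to 660.4 TPM in Aβ42- and 583 to 662 TPM in Aβ42+, was mostly Blnk, with a mean of 525 TPM.

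Genes of granulocyte precursors, the bone marrow cells that make primary granules, were higher in Aβ42-. Of the 9 members of their list, 8 were called higher and none lower, and the median difference was 3.83, against -0.08 over all members. The 8 include Nkg7, described above, which also counts among the NK cell genes. Elane, the neutrophil elastase of primary granules, was at 524, 324, 448 and 402 TPM in Aβ42- and 16.1, 27.1, 38.4 and 22.7 TPM in Aβ42+, a difference of 4.02 ± 0.25 (adjusted p = 0.00405). Mpo, the myeloperoxidase of the same granules, was at 534, 358, 442 and 402 TPM in Aβ42- and 24.1, 28.4, 39.7 and 24.5 TPM in Aβ42+, a difference of 3.86 ± 0.17 (adjusted p = 0.00261). Both were highest in replicate 1 of Aβ42-, and the lowest Aβ42- library exceeded the highest Aβ42+ library of either gene several times over. Prtn3, the proteinase 3 gene, was at 411, 219.8, 355 and 348 TPM in Aβ42- and 29.5, 12.8, 45.8 and 13.1 TPM in Aβ42+ (difference 3.83 ± 0.26, adjusted p = 0.00503). Ctsg, which encodes cathepsin G, was at 298, 142, 180.3 and 163 TPM in Aβ42- and 10.9, 3.75, 12.3 and 13.9 TPM in Aβ42+ (difference 4.20 ± 0.27, adjusted p = 0.00405). Ms4a3 (3.47 ± 0.25), Fcnb (3.44 ± 0.16) and Cebpe (2.67 ± 0.14), the last a transcription factor of late granulocyte maturation, also did not overlap between the sorts, and Gstm1 was not called (difference 0.44 ± 0.16, adjusted p = 0.325). The summed level of the list was 1721 to 2701 TPM in Aβ42- and 192 to 285 TPM in Aβ42+, and none of its 10 genes was at 0 in every library.

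Elane and Prtn3 are neighbours on chromosome 10 (mm10, 79879667 to 79883174 for Prtn3 and 79886312 to 79888216 for Elane), and Mpo lies on chromosome 11 at 87793784 to 87804412. Their promoters are shown because all hold the letters GAGGAAGT, a purine-rich motif of the kind bound by PU.1, the transcription factor that macrophages and granulocytes share. The 250 bases before each start site were taken from RefSeq (GRCm38.p6, plus strand in all 3 genes), 5′ to 3′, with the motif in capitals.
Elane (chr10:79886062-79886311): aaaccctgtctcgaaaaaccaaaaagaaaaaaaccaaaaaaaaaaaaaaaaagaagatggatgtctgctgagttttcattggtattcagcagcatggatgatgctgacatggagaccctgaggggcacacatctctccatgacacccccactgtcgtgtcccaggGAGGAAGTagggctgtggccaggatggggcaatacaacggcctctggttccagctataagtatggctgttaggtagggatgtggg
Mpo (chr11:87793534-87793783): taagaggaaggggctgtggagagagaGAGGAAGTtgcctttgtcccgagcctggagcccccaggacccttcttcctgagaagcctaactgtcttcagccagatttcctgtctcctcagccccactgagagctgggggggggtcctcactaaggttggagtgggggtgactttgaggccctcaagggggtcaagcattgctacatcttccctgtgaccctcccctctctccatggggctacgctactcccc
Prtn3 (chr10:79879417-79879666): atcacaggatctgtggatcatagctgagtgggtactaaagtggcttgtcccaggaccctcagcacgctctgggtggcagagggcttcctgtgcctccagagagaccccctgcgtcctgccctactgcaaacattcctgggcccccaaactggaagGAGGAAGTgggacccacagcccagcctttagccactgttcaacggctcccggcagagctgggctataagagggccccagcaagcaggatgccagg
On either strand, the motif was found before 6 of 18 called genes of the precursor and mature neutrophil lists with a promoter in the table, and before 2.79% of all genes with a promoter. It was found before 8.21% of the members called higher, 6.98% of those called lower and 3.21% of all members. Such a match describes letters and not a bound site.

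Genes of mature neutrophils were higher in Aβ42- in a graded way. Of 14 members, 13 were called higher and none lower, with a median difference of 1.47, and the remaining gene, Csf3r, differed by 0.54 ± 0.11 (adjusted p = 0.102). Ly6g, the surface antigen that marks neutrophils, was at 161, 127, 152 and 153 TPM in Aβ42- and 16.9, 21.2, 25.3 and 12.1 TPM in Aβ42+ (difference 2.95 ± 0.20, adjusted p = 0.00489). Mmp9, a gelatinase of neutrophil granules, was at 306, 271, 313 and 312 TPM in Aβ42- and 53.97, 45.4, 58.7 and 29.6 TPM in Aβ42+ (difference 2.69 ± 0.17, adjusted p = 0.00405). Cxcr2, the chemokine receptor of blood neutrophils, differed by 2.88 ± 0.21 and the collagenase gene Mmp8 by 2.21 ± 0.12. Stfa2l1 (2.67 ± 0.18), Wfdc21 (2.12 ± 0.15), the secreted peptide gene Retnlg (1.54 ± 0.15) and the lactoferrin gene Ltf (1.40 ± 0.11) were called as well. The most abundant genes of the list differed less. Camp, the cathelicidin peptide precursor, was at 822, 912, 1056 and 1077 TPM in Aβ42- and 419, 379.9, 449 and 346 TPM in Aβ42+ (difference 1.27 ± 0.11). S100a8, a subunit of calprotectin, was at 983, 1351, 1519.8 and 1394 TPM in Aβ42- and 667, 709, 840.4 and 652 TPM in Aβ42+ (difference 0.86 ± 0.09), and its partner S100a9 differed by 0.86 ± 0.11. Thus S100a8, Ngp (688 ± 76.7 TPM), Camp and Lcn2 (409 ± 42.1 TPM, SD, n = 4) stayed at or above 346 TPM in every Aβ42+ library, whereas Elane, Mpo, Prtn3 and Ly6g were at or below 45.8 TPM there. The authors removed duplicate reads from single-end data, which lowers the values of the most abundant genes most, and the highest level in the 8 libraries was 2378 TPM. The summed level of the 14 markers was 7492 to 9830.4 TPM in Aβ42- and 3094 to 4121 TPM in Aβ42+. Stfa3, a stefin-type protease inhibitor, was listed at 0 in 3 Aβ42+ libraries and at 7.47 TPM in that of replicate 3, against 47.98, 30.6, 47.5 and 29.9 TPM in Aβ42-.

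The formyl peptide receptors of phagocytes, Fpr1 and Fpr2, were also higher in Aβ42-. Fpr1 was at 411, 344, 370.2 and 391 TPM in Aβ42- and 58.3, 71.6, 60.2 and 47.2 TPM in Aβ42+, a difference of 2.67 ± 0.13 (adjusted p = 0.00315). Fpr2, which also binds Aβ, differed by 2.27 ± 0.16 (adjusted p = 0.00543). Neither gene overlapped between the sorts. The part of granulocytes in these differences was not tested.

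Mir223, the locus of a myeloid microRNA that is abundant in granulocytes, lies on chromosome X (mm10, 96242817 to 96242926) inside the transcript F630028O10Rik. It was at 415, 262, 204 and 198 TPM in Aβ42- and 44.9, 33.99, 13.9 and 31.5 TPM in Aβ42+, a difference of 3.12 ± 0.19 (adjusted p = 0.00403). Its host transcript was at 251, 195, 165 and 126 TPM in Aβ42- and 28.8, 28.3, 32.5 and 16.6 TPM in Aβ42+ (difference 2.74 ± 0.14, adjusted p = 0.00315). Both were highest in replicate 1 of Aβ42- and did not overlap. The libraries were made from polyA RNA, so these reads come from longer transcripts and are no measure of the mature microRNA. The mature sequences are shown because the locus and its host were both called, from RefSeq (GRCm38.p6, plus strand), 5′ to 3′, with the seed (bases 2 to 8) in capitals.
mmu-miR-223-5p: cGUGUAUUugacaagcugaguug
mmu-miR-223-3p: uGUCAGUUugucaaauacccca
Of the 500 members tested with the symbol of a short RNA, 7 were called higher and 5 lower. Several of the called hairpins lie inside a called gene, as Mir6949 inside Mcpt8 and Mir7678 inside Slpi, so their reads cannot be told apart from those of the gene.

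**Figure D2:**
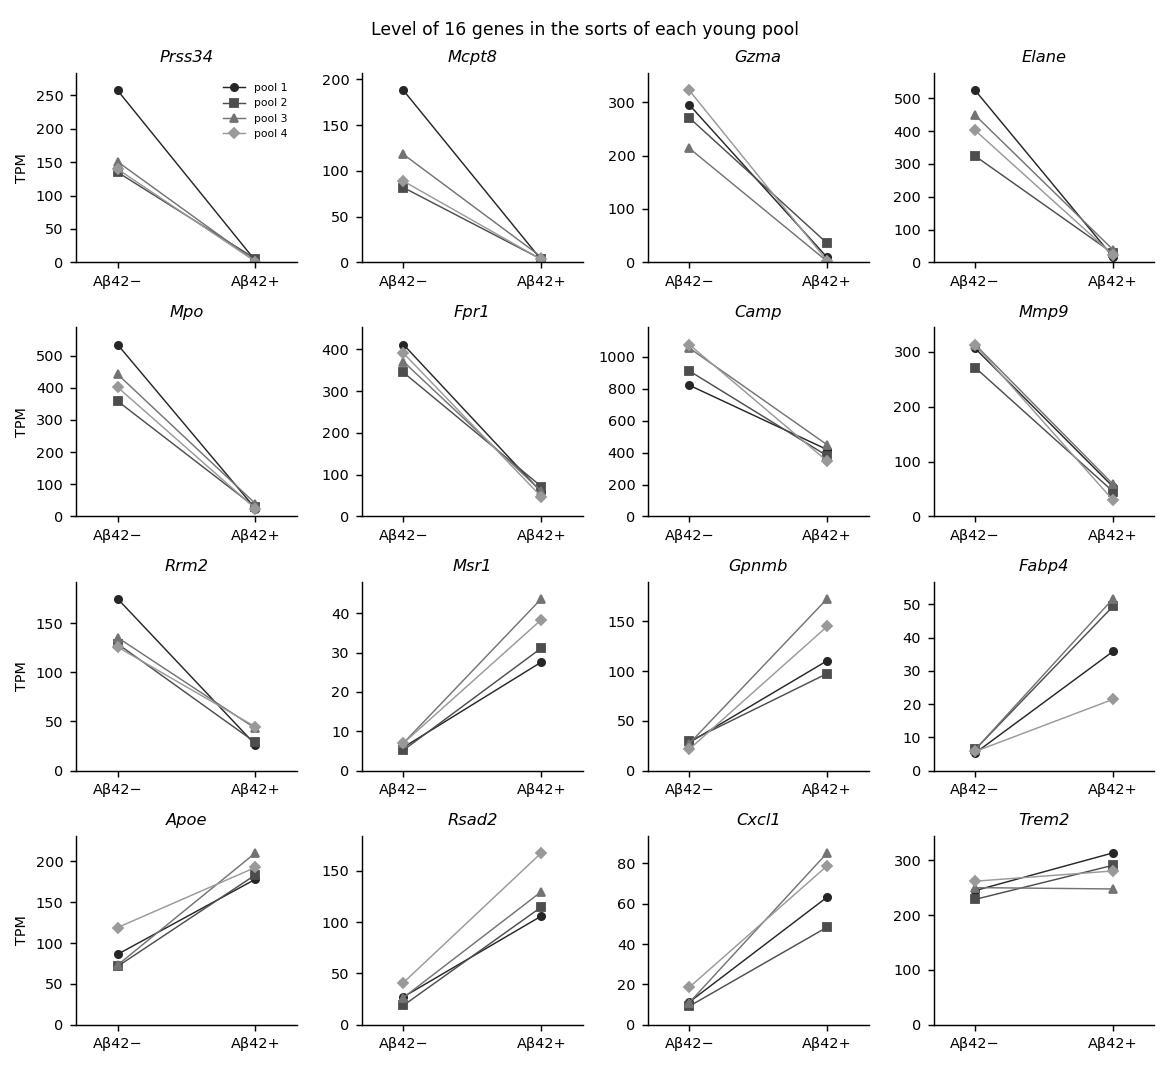
Level of 16 genes (TPM, linear axes from 0) in the Aβ42- and Aβ42+ sorts of each pool, with a line joining the sorts of 1 pool. In the 9 panels from Prss34 to Rrm2 every line falls toward Aβ42+, in the 6 from Msr1 to Cxcl1 every line rises, and Trem2 shows no called difference.

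Other blood and border cell markers were set beside these. Of the 12 genes of the monocyte and dendritic cell list, 9 were below 20 TPM in the mean. Ly6c2 (difference 0.99 ± 0.10) and Chil3 (1.06 ± 0.11) were called higher among its 3 members. Itgax, the other member, was not called (-0.42 ± 0.14, adjusted p = 0.29). The sum of the list was 1066 to 1264 TPM in Aβ42- and 509.7 to 846 TPM in Aβ42+. It was mostly Chil3, at 851 ± 87.1 and 416 ± 102 TPM (SD, n = 4). Border-associated macrophage markers moved the other way. Pf4, a platelet factor gene that these macrophages also express, was at 12.2, 8.56, 5.11 and 9.3 TPM in Aβ42- and 35.4, 36.2, 41.8 and 27.6 TPM in Aβ42+ (difference -1.93 ± 0.26, adjusted p = 0.0317). Mrc1, the mannose receptor, was at 17.996, 15.8, 14.9 and 12.6 TPM in Aβ42- and 54.8, 33.5, 41.2 and 38.2 TPM in Aβ42+ (difference -1.38 ± 0.14, adjusted p = 0.0127). These were 2 calls among 4 members, and the sum of the 12 markers was 169 to 313 TPM in Aβ42- and 413 to 494 TPM in Aβ42+. All 4 hemoglobin genes of the erythroid list were called higher, although Hba-a1 was at 525, 569.7, 468 and 1299 TPM in Aβ42- and 330.1, 284, 247 and 541 TPM in Aβ42+ and overlapped between the sorts. The Aβ42- library of replicate 4 was far above the others for all 4, and without that replicate their differences were 0.78 to 1.14 and none was called. The 2 alpha and the 2 beta genes are near-identical pairs, so reads may be split between them. Astrocyte, oligodendrocyte, neuron, endothelial and choroid plexus lists had 1 to 4 members each and no called member. The platelet and mast cell list had no called member either, but both of its members were higher in every pair without overlap, with a median difference of 0.92 and unadjusted p under 0.05, and its sum was 149 to 195 TPM in Aβ42- and 42.1 to 87.5 TPM in Aβ42+. The granulocyte, monocyte and NK cell sums are high in the same libraries as every gene described as higher in Aβ42-, and the border-associated macrophage sum in the same libraries as those higher in Aβ42+, and their part in those results was not tested.

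**Figure D3:**
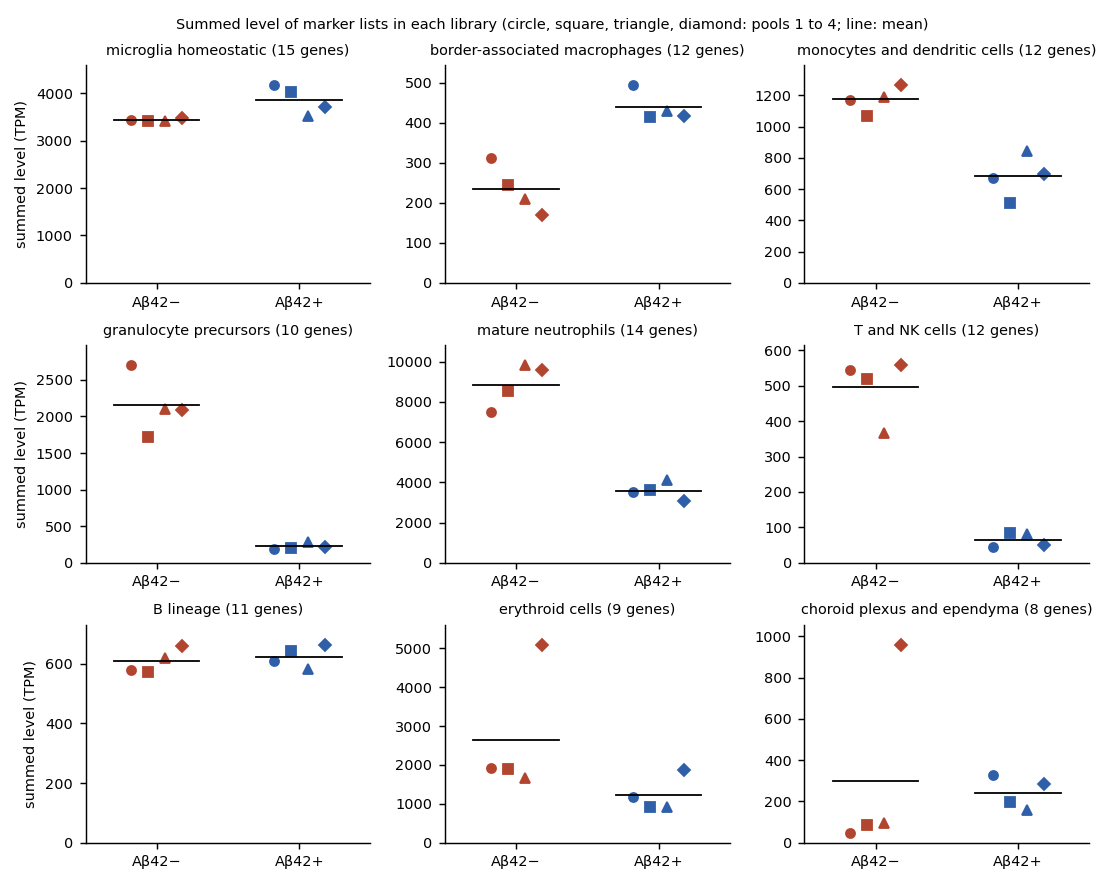
Summed level (TPM, linear axes from 0) of 9 marker lists in each of the 8 young libraries, with the mean of 4 as a line. Granulocyte precursor, mature neutrophil and T and NK cell sums did not overlap between the sorts, B lineage sums, mostly Blnk, did, and the Aβ42- library of replicate 4 stands apart for the erythroid and choroid plexus lists.

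Part of the cell cycle genes were higher in Aβ42-. Of the S phase list, 7 of 14 members were called higher and none lower (median difference 1.15), and of the G2 and M phase list 8 of 18, likewise with none lower (median 1.14). Rrm2, the inducible subunit of ribonucleotide reductase, was at 175, 129, 135 and 126 TPM in Aβ42- and 26.3, 28.6, 42.9 and 44.6 TPM in Aβ42+ (difference 1.98 ± 0.21, adjusted p = 0.0157). Ccnb1, the mitotic cyclin B1, was at 41.3, 29.3, 36.2 and 22.96 TPM in Aβ42- and 8.12, 8.08, 13.2 and 9.49 TPM in Aβ42+ (difference 1.63 ± 0.20, adjusted p = 0.0253). Cdk1, the kinase that cyclin B1 activates, was at 48.2, 40.8, 40.3 and 37.7 TPM in Aβ42- and 11.1, 14.8, 15.5 and 17.4 TPM in Aβ42+ (difference 1.46 ± 0.18, adjusted p = 0.0253). None of these overlapped between the sorts. The replicative helicase subunits Mcm2, Mcm3, Mcm4, Mcm5 and Mcm6 differed by 0.84 to 1.45, all called. Rrm1, the other subunit of the reductase, differed by 1.35 ± 0.17. In G2 and M phase, the chromosomal passenger gene Cdca8 (1.42 ± 0.18), the mitotic kinase gene Plk1 (1.40 ± 0.18), H2afx (1.14 ± 0.11), the cyclin gene Ccna2 (1.03 ± 0.15), the activator of the anaphase-promoting complex Cdc20 (1.03 ± 0.13) and Hmgb2 (0.67 ± 0.08) were also called. Each call of both lists was lost without at least 1 of the pools. Mki67, the common proliferation marker, was at 29.3 ± 12.1 and 11.2 ± 2.17 TPM without overlap and was not called (difference 1.24 ± 0.27, adjusted p = 0.113), and Top2a, the topoisomerase of dividing cells, was below 20 TPM in the mean and not called either (1.5 ± 0.29). The median difference of both lists was highest in the pool of replicate 1, at 1.52 for S phase and 1.40 for G2 and M phase, and lowest in that of replicate 4, at 0.63 and 0.75. The summed granulocyte precursor level in Aβ42- was 2701, 1721, 2101 and 2094 TPM, highest in replicate 1 and lowest in replicate 2. The median difference of that list was 4.19, 3.53, 3.36 and 3.94 in the 4 pools, highest in replicate 1, as for both cell cycle lists. Which cells carried the cell cycle RNA was not tested. Clustered histone genes had 7 of 32 members called higher and none lower, in libraries made from polyA RNA, which most histone transcripts lack.

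The promoters of Cdk1 and Rrm2 are shown for the CCAAT box, the pentamer bound by NF-Y that is common before cell cycle genes. The 250 bases before each start site are given from RefSeq (GRCm38.p6), 5′ to 3′ on the strand of the gene, minus for Cdk1 and plus for Rrm2, with CCAAT or its complement ATTGG in capitals.
Cdk1 (chr10:69352913-69353162): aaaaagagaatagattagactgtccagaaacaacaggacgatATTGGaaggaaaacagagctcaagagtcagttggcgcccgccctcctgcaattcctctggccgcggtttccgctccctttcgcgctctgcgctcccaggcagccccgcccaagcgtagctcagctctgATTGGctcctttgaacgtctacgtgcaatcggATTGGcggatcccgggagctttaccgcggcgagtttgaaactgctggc
Rrm2 (chr12:24708004-24708253): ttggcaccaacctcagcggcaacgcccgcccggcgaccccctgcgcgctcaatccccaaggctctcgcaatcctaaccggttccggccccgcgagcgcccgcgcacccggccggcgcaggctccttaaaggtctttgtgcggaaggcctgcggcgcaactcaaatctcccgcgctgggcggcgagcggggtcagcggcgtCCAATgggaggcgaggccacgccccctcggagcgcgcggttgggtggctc
The pentamer was found on either strand before all 12 of the 12 called genes of both lists with a promoter in the table, against 37.5% of all genes with a promoter and 38.5% of members. The E2F letters TTTCCCGC were found before none of them and before 1.03% of all genes with a promoter, which says only that these exact letters are not in this window.

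Homeostatic microglia genes differed little between the sorts. None of the 15 members was called in either direction by limma (7 had an unadjusted p under 0.05), and their differences ran from -0.33 to 0.09 with a median of -0.19. Tmem119 was at 207, 166, 146 and 163 TPM in Aβ42- and 244, 188, 135 and 152 TPM in Aβ42+. Cx3cr1, the fractalkine receptor, was at 233, 200.3, 177 and 213 TPM in Aβ42- and 277, 251, 222 and 251 TPM in Aβ42+ (difference -0.28 ± 0.06, adjusted p = 0.088). For both genes the sorts overlapped. Csf1r, the receptor on which microglia depend for survival, differed by -0.19 ± 0.06 (adjusted p = 0.273). In all, 4 genes of the list, Csf1r among them, and its summed level, given above, were lower in Aβ42- without overlap. No member of the list of microglia transcription factors was called either, of 22 members (11 with an unadjusted p under 0.05), and Spi1, which encodes PU.1, differed by -0.06 ± 0.06.

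Among phagocytic receptors that the study examined, 2 of 15 members were called, in opposite directions. Msr1, the class A scavenger receptor that binds fibrillar Aβ, was at 5.92, 5.21, 7.01 and 6.98 TPM in Aβ42- and 27.6, 31.2, 43.7 and 38.4 TPM in Aβ42+, a difference of -2.30 ± 0.15 (adjusted p = 0.00405). Every Aβ42+ library exceeded every Aβ42- library, by 5.61-fold in the means. In replicates 2 to 4 of Aβ42- the common level of olfactory and vomeronasal receptor genes was 4.24, 5.46 and 4.48 TPM, so this ratio is uncertain. The same limit applies to the low Aβ42- values of Cd36, Fabp4, Flrt3, Ms4a4a and Il10 given below. It applies as well to the low Aβ42+ values of Prss34, Mcpt8, Prg2, Ear6, Ear1, Gzma, Il2rb and Stfa3 given above. Itgam, given above, was the call in the other direction. Cd36, the class B scavenger receptor, followed Msr1 with 3.104, 1.67, 1.42 and 1.698 TPM in Aβ42- and 17.9, 16.4, 13.4 and 16.6 TPM in Aβ42+ (difference -2.54 ± 0.21, adjusted p = 0.00785), but its mean of 9.02 TPM is below the level of a member. Trem2, the lipid and Aβ receptor linked to Alzheimer's disease risk, was at 245, 229, 250.02 and 262 TPM in Aβ42- and 313, 291, 248 and 280.4 TPM in Aβ42+, a difference of -0.20 ± 0.08 (adjusted p = 0.402), lower in 3 of 4 Aβ42- sorts. Axl, the receptor tyrosine kinase for phosphatidylserine bridged by Gas6, was lower in Aβ42- in every pair without overlap, at 29.7, 22.8, 16.3 and 14.4 against 49.8, 41.4, 33.9 and 46.3 TPM, and just missed the threshold (difference -1.05 ± 0.17, adjusted p = 0.0558). Clec7a (difference -0.67 ± 0.12), Itgav (-0.61 ± 0.11) and Cd68 (-0.25 ± 0.04) likewise did not overlap and were not called. The Trem2 adaptor Tyrobp was at 879 ± 66.4 TPM in Aβ42- and 826 ± 20.5 TPM in Aβ42+ (SD, n = 4) and differed by 0.09 ± 0.06. The co-receptor gene Cd14 (-0.17 ± 0.05), the scavenger receptor genes Scarb1 (-0.25 ± 0.10) and Scarb2 (-0.22 ± 0.08) and Mertk (-0.24 ± 0.11), a receptor for apoptotic cells, were not called either. The median over the list was -0.22. The study examined these receptors in libraries of this series, so the list is no independent evidence of a direction.

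Of 24 members of a second list of Aβ and phagocytic receptors, 3 were called higher and 2 lower (median -0.10). Those higher were Fpr1, Fpr2 and Cd300lf, an inhibitory lipid receptor of myeloid cells (difference 0.96 ± 0.09). Those lower were Mrc1 and Apoe. Tlr2 (-0.25 ± 0.06) and Tlr4 (0.01 ± 0.13), pattern recognition receptors for Aβ, were not called.

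Few genes of the uptake and degradation machinery were called. Of 33 actin and phagocytic cup members, Rac2 and Was were called higher and Myo1e lower (median -0.04). Rac2, a small GTPase of blood leukocytes, was at 355, 306, 335 and 344 TPM in Aβ42- and 171, 152, 137 and 143 TPM in Aβ42+ (difference 1.15 ± 0.07, adjusted p = 0.00427). Of 33 members for endosome and lysosome membranes and the proton pump, Npc2, the lysosomal cholesterol carrier, was the call, at 284, 274, 265 and 287 TPM in Aβ42- and 385, 358, 373 and 378 TPM in Aβ42+ (difference -0.43 ± 0.05, adjusted p = 0.0239). Of 38 lysosomal hydrolase members, 3 were called lower and none higher. Ctsb, which encodes cathepsin B, was at 414, 441, 443 and 432 TPM in Aβ42- and 532, 560.03, 538 and 575 TPM in Aβ42+ (difference -0.35 ± 0.05, adjusted p = 0.035). Lipa, the lysosomal acid lipase (difference -0.62 ± 0.10), and Gm2a, the ganglioside activator protein (-0.48 ± 0.07), were the others. The abundant Lamp1 (-0.18 ± 0.05), Lamp2 (-0.20 ± 0.06) and Ctsd (-0.08 ± 0.04), membrane and protease genes of the lysosome, were not called. Of the called lysosomal genes Lipa had the largest ratio of means, 1.54-fold toward Aβ42+. The median was -0.13 for the membrane list and -0.16 for the hydrolases, against -0.08 over all members, and 30 of 33 and 31 of 38 members lay below 0. Lower in Aβ42- without overlap were 3 and 10 of them, against 4.17% of all members. Limma's unadjusted p was under 0.05 for 16 and 25, against 2651 of the 8103 members tested.

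The lipid-handling genes Gpnmb and Fabp4 were among the largest differences toward Aβ42+, while others of their list went the other way. Gpnmb, a transmembrane glycoprotein of lipid-laden macrophages, was at 28.3, 29.4, 27.2 and 21.5 TPM in Aβ42- and 110.4, 97.5, 173 and 145 TPM in Aβ42+ (difference -2.24 ± 0.20, adjusted p = 0.00915). Fabp4, the macrophage and adipocyte fatty acid binding protein, was at 5.28, 6.35, 6.32 and 5.75 TPM in Aβ42- and 35.9, 49.4, 51.7 and 21.4 TPM in Aβ42+ (difference -2.48 ± 0.23, adjusted p = 0.01). The Aβ42- libraries of both genes lay close together, and the spread was in the Aβ42+ libraries. Apoe, the main lipid carrier of the brain, was at 86.2, 71.4, 73.04 and 119 TPM in Aβ42- and 178, 183, 210.2 and 192 TPM in Aβ42+ (difference -1.15 ± 0.14, adjusted p = 0.0265). Apoc2, the cofactor of lipoprotein lipase, was at 18.6, 20.3, 11.5 and 13.7 TPM in Aβ42- and 48.01, 90.3, 73.2 and 63.2 TPM in Aβ42+ (difference -2.03 ± 0.21, adjusted p = 0.0145). Apoc4-apoc2, a readthrough transcript listed beside it (difference -2.16 ± 0.20), shares reads with Apoc2, so they count as 1 observation. Both apolipoprotein differences were without overlap. Of 22 members of the lipid-handling list, 4 were called lower and 2 higher (median -0.26), the latter being Scd2, a fatty acid desaturase (1.26 ± 0.16), and Plin3, a lipid droplet coat protein (1.22 ± 0.11). Fabp3, a related binding protein, was the remaining call toward Aβ42+ (-0.51 ± 0.07). Of 16 cholesterol synthesis members, only Mvd was called (difference 1.07 ± 0.13).

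In the list of disease-associated microglia genes, the program that microglia turn on around plaques, 5 of 32 members were called lower in Aβ42- and 1 higher (median -0.19). Those lower were Gpnmb, Apoe, Ctsb, Lgals3bp (-0.60 ± 0.08) and Ank (-0.69 ± 0.08), and that higher was Cd52 (0.51 ± 0.07). Spp1, which encodes osteopontin, was lower in every pair without overlap, at 48.9, 52.6, 43.9 and 43.5 against 69.8, 73.1, 95.5 and 65.9 TPM, and was not called (difference -0.67 ± 0.13, adjusted p = 0.09). Lpl (-0.28 ± 0.11) and Cd9 (-0.10 ± 0.06) were not called.

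Spic, Ms4a4a and Flrt3, which belong to none of the lists, were also among the 15 largest differences toward Aβ42+. Spic, a transcription factor of heme-handling macrophages, was at 12.7, 7.94, 9.47 and 3.23 TPM in Aβ42- and 70.4, 79.9, 47.3 and 97.8 TPM in Aβ42+ (difference -3.08 ± 0.40, adjusted p = 0.0286). Ms4a4a, a membrane protein of macrophages, was at 5.397, 7.57, 3.01 and 4.11 TPM in Aβ42- and 44.7, 43.9, 81.7 and 38.4 TPM in Aβ42+ (difference -3.13 ± 0.33, adjusted p = 0.0157). Flrt3, a leucine-rich repeat adhesion protein, was at 2.31, 4.56, 8.08 and 7.04 TPM in Aβ42- and 20.9, 31.2, 49.6 and 38.1 TPM in Aβ42+ (difference -2.50 ± 0.15, adjusted p = 0.00387). No library of one sort reached the other for these genes.

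Part of the interferon-stimulated genes were lower in Aβ42-. Of 19 members of the list, 7 were called lower and none higher, and the median difference was -0.55, nearest to 0 in the pool of replicate 1 (-0.32) and farthest in that of replicate 4 (-0.84). Rsad2, which encodes the antiviral enzyme viperin, was at 27.2, 18.9, 26.5 and 41.1 TPM in Aβ42- and 106, 115, 129.6 and 167 TPM in Aβ42+ (difference -2.18 ± 0.13, adjusted p = 0.00357). Ifit1, which binds viral RNA ends, was at 18.99, 12.4, 18.7 and 19.6 TPM in Aβ42- and 72.7, 55.8, 69.7 and 97.3 TPM in Aβ42+ (difference -2.02 ± 0.11, adjusted p = 0.00354). Isg15, the ubiquitin-like modifier, was at 59.3, 63.2, 39.7 and 84.9 TPM in Aβ42- and 126, 109, 112 and 155 TPM in Aβ42+ (difference -1.04 ± 0.13, adjusted p = 0.0261). Each was highest in replicate 4 of both sorts and did not overlap between them. Mx1 (-1.61 ± 0.18), Ifi204 (-1.5 ± 0.21), Ifi27l2a (-1.36 ± 0.10) and Usp18 (-1.20 ± 0.11) were the other calls. Ifi205 and Mnda, of the interferon-inducible family of nuclear DNA sensors that also holds Ifi204, differed by -2.35 ± 0.20 and -2.22 ± 0.18.

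The promoters of Rsad2, Ifit1 and Isg15 are shown for the interferon-stimulated response element (ISRE), searched as GAAA and a second GAAA with 2 bases between them, on either strand. The 250 bases before each start site are given from RefSeq (GRCm38.p6), 5′ to 3′ on the strand of the gene, minus for Rsad2 and Isg15 and plus for Ifit1, with each match in capitals. Overlapping matches run together.
Ifit1 (chr19:34640639-34640888): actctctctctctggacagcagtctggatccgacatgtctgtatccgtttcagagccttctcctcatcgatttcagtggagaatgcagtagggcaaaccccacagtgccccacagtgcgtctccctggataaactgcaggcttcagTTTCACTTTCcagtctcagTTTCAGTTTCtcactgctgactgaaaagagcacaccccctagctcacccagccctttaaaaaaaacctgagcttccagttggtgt
Isg15 (chr4:156200819-156201068): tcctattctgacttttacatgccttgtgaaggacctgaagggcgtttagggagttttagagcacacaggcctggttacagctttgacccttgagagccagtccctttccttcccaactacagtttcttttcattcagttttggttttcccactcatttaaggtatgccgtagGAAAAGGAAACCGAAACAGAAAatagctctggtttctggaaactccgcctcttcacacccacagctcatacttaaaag
Rsad2 (chr12:26456453-26456702): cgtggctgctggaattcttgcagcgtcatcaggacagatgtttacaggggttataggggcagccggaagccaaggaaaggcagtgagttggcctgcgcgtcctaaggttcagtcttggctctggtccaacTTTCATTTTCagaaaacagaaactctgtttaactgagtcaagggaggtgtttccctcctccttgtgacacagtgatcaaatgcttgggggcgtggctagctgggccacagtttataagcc
The element was found before all 3 of the called genes of the list that have a promoter in the table, and before 3 of 10 of its members that were not called. It was found before 3.46% of all genes with a promoter, 3.25% of members, 10.5% of the members called lower and 2.5% of those called higher.

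Chemokine genes moved both ways, most of them lower in Aβ42-. Of 17 members, 5 were called lower and 2 higher in Aβ42- (median -0.30). Cxcl1, a neutrophil attractant, was at 11.3, 9.21, 10.99 and 18.6 TPM in Aβ42- and 63.3, 48.4, 85.2 and 78.8 TPM in Aβ42+ (difference -2.38 ± 0.16, adjusted p = 0.00465). The monocyte attractants Ccl2 (-0.43 ± 0.06) and Ccl7 (-0.71 ± 0.09), Ccl9 (-0.66 ± 0.06) and the interferon-induced Cxcl10 (-0.60 ± 0.08) were also lower. Ccl5, a lymphocyte attractant that cytotoxic lymphocytes also make, was at 405, 495, 404 and 604 TPM in Aβ42- and 278, 233, 179 and 305 TPM in Aβ42+ (difference 0.94 ± 0.11, adjusted p = 0.0221), and the receptor gene Cxcr4 was higher by 0.53 ± 0.08. Ccl3 and Ccl4, at 1185 ± 63.3 and 667 ± 28.5 TPM in Aβ42+ (SD, n = 4) the most abundant of those named, were not called.

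Of 29 members for NF-kB targets and cytokines, Ccrl2 was called higher (0.79 ± 0.10) and Il10 and Bcl2a1b, the latter of a family of near-identical genes, lower (median -0.15). Il10, the anti-inflammatory cytokine interleukin 10, was at 5.49, 1.92, 12.6 and 6.27 TPM in Aβ42- and 36.4, 35.4, 38.8 and 43.4 TPM in Aβ42+ (difference -2.58 ± 0.34, adjusted p = 0.0283). The Aβ42+ libraries lay close to each other and above every Aβ42- library. Tnf (difference -0.15 ± 0.05), Il1b (0.08 ± 0.07) and Il6 (0.12 ± 0.20) were not called. The MHC class II genes H2-Aa (-0.57 ± 0.09), H2-Ab1 (-0.48 ± 0.07) and H2-Eb1 (-0.48 ± 0.06) were the calls among 17 antigen presentation members, all lower in Aβ42- in every pair with overlapping levels. Of the metallopeptidases, the neutrophil genes Mmp8 and Mmp9 were higher and Mmp13 (-1.87 ± 0.18) and Mmp14 (-1.43 ± 0.09) lower, 4 calls among 12 members.

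Metabolic lists held few calls. Of 19 glycolysis members, Slc2a3, Gpi1 and Ldha were called higher and none lower (median 0.16). Slc2a3, the glucose transporter GLUT3, was at 80.4, 55.5, 58.01 and 63.2 TPM in Aβ42- and 16.5, 13.7, 14.97 and 12.2 TPM in Aβ42+ (difference 2.08 ± 0.12, adjusted p = 0.00357), with no overlap. Of 25 members of the oxidative stress list, Prdx5 (0.61 ± 0.06) and Prdx6 (0.68 ± 0.09) were higher and Prdx1 (-0.39 ± 0.05), Srxn1 (-0.36 ± 0.05) and Gclm (-0.40 ± 0.06) lower. Among complement genes, C3 (0.91 ± 0.12) and Itgam were the calls of 15 members. The heat shock list had Chac1 called higher (1.32 ± 0.12) among 27 members and the apoptosis list Trp53inp1 (1.42 ± 0.20) among 22. No member of the immediate early and dissociation list (23 members, 12 with an unadjusted p under 0.05), the mitochondrially encoded transcripts (13 members, 0), the cytosolic ribosomal proteins (85, 1), the respiratory chain (79, 19) or the proteasome (37, 16) was called by limma. Fos, of the immediate early list, differed by 0.27 ± 0.06.

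**Figure D4:**
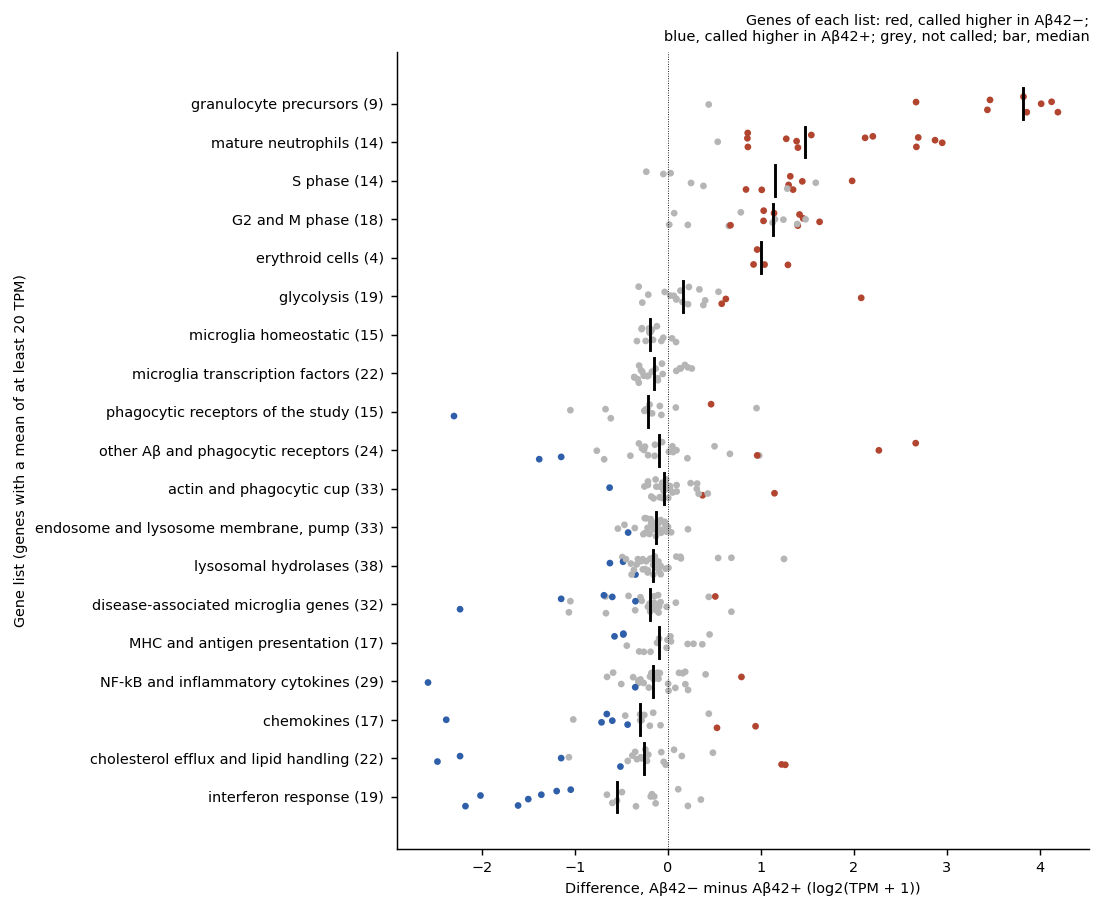
Each point is a member of a list, placed by its difference between sorts (Aβ42- minus Aβ42+, log2(TPM + 1)), with the number of members in brackets and the median as a bar. Red and blue points were called higher and lower in Aβ42-. Granulocyte lists and cell cycle lists lie to the right, the interferon list has the lowest median of those drawn at -0.55, and homeostatic microglia genes sit within -0.33 and 0.09.

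Some called members lie beside each other. Within 250 kb of a neighbour, Mcpt8, Ctsg and Gzmb form a run of called genes on chromosome 14 (mm10, 56082163 to 56262334), all higher in Aβ42-, in the known cluster of granule serine protease genes. H2-Ab1, H2-Aa and H2-Eb1 lie on chromosome 17 at 34263227 to 34316674, all lower. The Ms4a cluster on chromosome 19 (11375488 to 11640851) was mixed. Its 5 called genes had 3 lower in Aβ42-, Ms4a4a, Ms4a6b and Ms4a6d, and 2 higher, Ms4a3 and Ms4a4b. Ms4a6b, Ms4a6d and Ms4a4b were chosen after their values were seen.

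In old pools the difference between sorts had the same sign for nearly all of these genes. The mean of the paired differences in old pools was above 0 for 378 of the 380 members called higher in young Aβ42-. It was below 0 for 118 of the 120 called lower. The median old differences were 1.49 and -0.72. The members were chosen on the young libraries. The dependence of the difference on age, tested in all 16 libraries with the pool as a block, was called for 40 of the 500 called members (8%), against 28.1% of members and 36.9% of all genes tested. The median of this term was 0.28 over members and -0.88 over all genes tested, so members and all genes tested were shifted in opposite directions. Without the pool as a block, the dependence was called for 1 member. Against 2274 members called with the block, leaving out old replicate 2 gave 944, old replicate 4 1252, young replicate 2 1038 and young replicate 4 1037. Rsad2 and Ifit1 were among those called. Rsad2 differed by -1.31 in old against -2.18 in young pools (term 0.87 ± 0.18, adjusted p = 0.0135). AW112010 differed by 2.19 in old against 3.62 in young pools (term -1.43 ± 0.24, adjusted p = 0.00941). Msr1 (term -0.68 ± 0.38, adjusted p = 0.176), Elane (-1.22 ± 0.55, adjusted p = 0.105) and Prss34 (-0.60 ± 0.69, adjusted p = 0.497) were not called for a dependence on age.

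**Figure D5:**
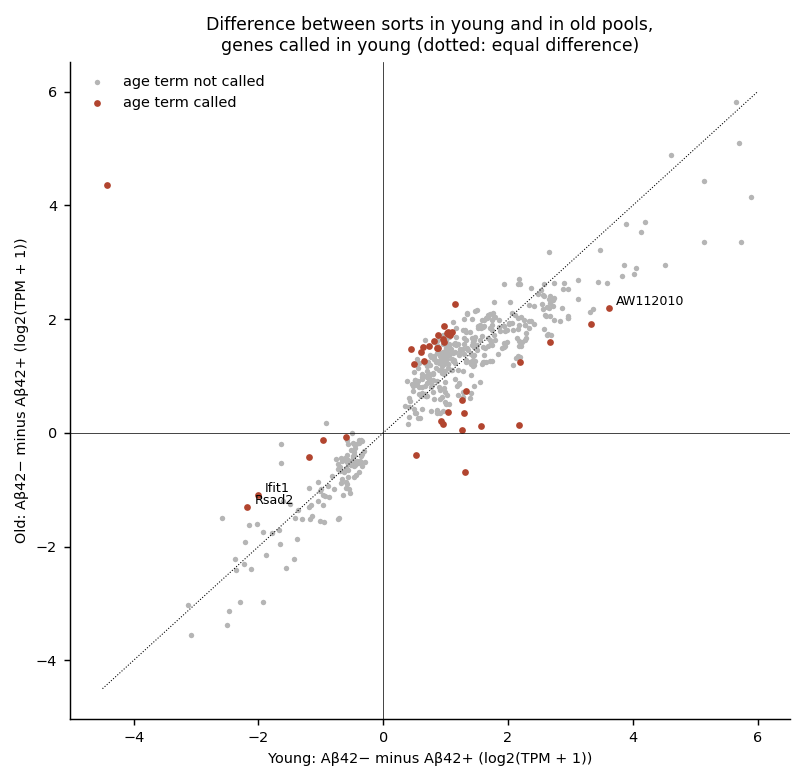
Each point is 1 of the 500 members called in young pools, placed by its difference between sorts in young (x axis) and in old pools (y axis, both Aβ42- minus Aβ42+, log2(TPM + 1)), with a dotted line where both are equal. Red marks the 40 members whose difference was called as dependent on age, and 378 of 380 points on the right lie above 0.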

How the data were processed

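PolyA RNA of sorted microglia was sequenced as single-end 85 bp reads from directional libraries. Per the methods and the submitters' processing notes, the authors trimmed reads (Trim Galore 0.4.2, cutadapt 1.9.1, FastQC 0.11.5), aligned them to mm10 (STAR 2.5.2a), removed duplicates (Picard 1.89), counted reads over RefSeq genes (featureCounts) and deposited TPM values. Depth cannot be read from TPM and is unknown, so counting intervals are not given. Removing duplicates from single-end reads caps abundant genes, and strand use and treatment of multi-mapping reads are not given in the sources used here.

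Levels were log2(TPM + 1). Genes that reached 1 TPM in 4 or more libraries entered limma 3.58.1 (R 4.3.3) with a mean-variance trend and the pool as a block, and p-values were adjusted by Benjamini-Hochberg over all of them. The dependence on age was the difference in old minus that in young pools, in 1 fit of 16 libraries. The authors' differential expression used DESeq2 on counts, which were not used here. The numbers pair the sorts because both came from 1 pool, and deviations of same-numbered libraries correlated at 0.63, 0.06, 0.46 and -0.07 across genes. Those of differently numbered libraries correlated at -0.56 to 0.28, a range that holds the values of replicates 2 and 4. The paired fit is the one reported. P-values set the difference between sorts against its spread over these pools, which limma draws toward the spread of genes of like level.

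Members and lists were chosen with earlier results of these data known, and the basophil and eosinophil and NK cell lists were written after the values were seen. The 15 largest called differences in each direction were named, without short RNAs and predicted genes, plus examples from the lists. Promoters and microRNAs came from RefSeq tables (GRCm38.p6) by symbol, and 32401 symbols (90.3%) matched. Simulated data had 100 genes changed by 1 and 100 by 0.5 on the log2 scale. Their random spread was a smooth function of level alone, as the trend in the fit assumes. The young fit recovered 96 and 50 of the changed genes over 33281 genes, with 8 false calls. Genes whose spread departs from the trend were not simulated. Alternatives changed the block, pseudocount, filter, scaling, background, trend, libraries and level of members.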

Additional observations from a re-analysis of the deposited data

Results flagged for a closer look

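Of 360 groups of 4 libraries tested with Dixon's criterion (gap divided by range, above the critical value for 4 libraries), which flags about 1 group in 20 by chance, 25 had a library apart. In Aβ42-, replicate 1 was apart for Prss34 (0.872), Ms4a3 (0.952), Mcm3 (0.908), Ccl9 (0.866), Il6 (0.874) and Cd36 (0.836), and replicate 2 for Ifit1 (0.876) and Mmp9 (0.834). Replicate 4 of Aβ42- was apart for Ttr (0.984), Hba-a1 (0.877), Hba-a2 (0.903), Hbb-bs (0.874), Hbb-bt (0.934), Cd300lf (0.847) and the sums of the erythroid (0.929) and choroid plexus (0.945) lists. In Aβ42+, replicate 3 was apart for Stfa3 (1), Ms4a4a (0.852), the mast cell gene Ms4a2 (0.843), Il6 (0.857) and the astrocyte sum (0.888). Replicate 4 of Aβ42+ was apart for Lcn2 (0.941), Hba-a2 (0.858) and Mx1 (0.878), and replicate 1 for Gstm1 (0.952).

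The difference between sorts depended on age, by limma's interaction term (old minus young, log2), for 14 genes named above. The median of this term was 0.28 over members and -0.88 over all genes tested. The term was negative for AW112010 (-1.43), Cd7 (-1.41), Tbx21 (-2), Prf1 (-1.99), Fpr1 (-1.08), Scd2 (-0.69), Chac1 (-0.59), Hba-a1 (-0.81), Hba-a2 (-0.71), Hbb-bs (-0.68) and Hbb-bt (-0.95). For Rsad2 (0.87), Ifit1 (0.92) and Cxcl10 (0.52), which were lower in young Aβ42-, it was positive, so the old difference was smaller. Tbx21 reversed its direction, with a difference of 1.3 in young and -0.70 in old pools.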

How the results depend on the processing

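No called gene described with values in the report changed direction under any of the 17 alternatives run for single genes, and 19 of these 123 genes were called in every alternative, such as Mpo, Prtn3, Ly6g, Gzmb, Rsad2 and Ifit1. The numbers of calls depended on the processing. Against 380 members higher and 120 lower, subtracting the background level left 170 and 18, and no trend with robust moderation left 56 and 6. Without the replicate block 367 and 66 were called, sharing 317 and 56 genes with the paired fit, and 101 of the 123 genes were still called. Of these 123, 28 were still called with no trend, 40 with background subtracted, 85 in the fit of all 16 libraries and 90 with upper quartile factors. The fit of all 16 libraries gave 49 lower. Adjusting over genes of at least 20 TPM alone gave 643 and 430, genes of at least 5 TPM gave 212 lower, and members of at least 50 TPM included 244 called higher. Leaving out 1 pool gave 91 to 217 higher and 12 to 35 lower, with fewer libraries in the fit, and without replicate 1, 2, 3 or 4 in turn 47, 54, 69 and 37 of the 123 genes were still called. The dependence on age was called for 2274 members, for 1 without the block, and for 944 to 2654 with 1 pool left out. Other alternatives kept counts within 1.5 times, and causes other than fewer libraries or genes were not tested. TPM holds no depth, so counting error at low levels could not be given.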

Other observations

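Chosen after its values were seen, the short RNA gene Mir6395 lies in Saraf and was lower in young Aβ42- by a difference of -4.43 ± 0.62 and higher in old Aβ42- by 4.35, while Saraf itself was not called. Mir24-1 and Mir3074-1 overlap on opposite strands and both were called lower in Aβ42-, so they count as 1 observation.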
